A study of Mus musculus with 4 samples.

Results

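The 8 genes described here encode the proteins with which a mouse cell detects or edits double-stranded RNA: Ifih1, Ddx58, Dhx58, Mavs, Zbp1, Tlr3, Eif2ak2 and Adar. They were listed by name, as the sensing arm of the response called viral mimicry, and are 8 of the 32285 genes in the files. Their levels were taken over the cells with at least 5000 unique molecular identifiers (UMIs), at least 1500 genes and at most 20% mitochondrial UMIs. A UMI marks 1 captured RNA molecule, so the values are counts of molecules per gene and cell.

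The cells were C3H10T1/2, an established mouse line of mesenchymal progenitors (Clone 8). They carried a lentiviral human H3C2 cDNA, which encodes histone H3.1, with HA and FLAG tags under an EF1 promoter and puromycin selection, either unmutated (H3WT) or with arginine 26 changed to cysteine (H3R26C). Cells of each genotype were captured in droplets (10X Genomics) following exposure to 5-Azacitidine (5-Aza), which blocks DNA methyltransferases, or to its vehicle, DMSO. The exposure to 5-Aza lasted 24 h at 3 µM, and differentiation went on until day 28. The collection day of the DMSO cells is not given in the sources used here, so treatment and time in culture cannot be told apart, and all 4 libraries contain a transgene. Each condition had 1 library, so no p-value between conditions was computed and the 95% intervals below cover counting error only.

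The filter kept 22049 of 39891 barcodes, from 39.9% in H3WT 5-Aza to 72.3% in H3R26C DMSO, which left 3710 cells in H3WT DMSO, 5993 in H3WT 5-Aza, 4727 in H3R26C DMSO and 7619 in H3R26C 5-Aza. The kept cells of a library held between 84060490 and 110712425 UMIs, with a median per cell of 22420, 16598, 13149 and 13123 UMIs in H3WT DMSO, H3R26C DMSO, H3WT 5-Aza and H3R26C 5-Aza. Between 24 and 58 kept barcodes were shared by any pair of libraries, at most 1.11% of the smaller one. Vim, Col1a1 and Col1a2, genes of mesenchymal cells, were at 1924 CPM or more in every library. Other genes of this kind were lower and less even. Pdgfra was at 111 to 166 CPM. Pdgfrb was at 193 and 165 CPM in H3WT DMSO and 5-Aza, and at 178 and 104 CPM in H3R26C DMSO and 5-Aza. Thy1 was at 110 and 123 CPM in H3WT and at 37.6 and 50.5 CPM in H3R26C, in the same order. CPM is the count of a gene summed over the kept cells, per 1000000 UMIs of those cells. The summed 13 skeletal muscle markers were at 22.1 and 28.3 CPM in the DMSO libraries and at 2172 and 2625 CPM in the 5-Aza libraries. Summed blood and immune markers stayed between 1.99 and 13.6 CPM in all libraries, and Hbb-bt was at 0 in each.

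Double-stranded RNA arises when viruses replicate and also when silent repeats of the genome are transcribed from both strands, as can follow the loss of DNA methylation. In the cytosol it is bound by RIG-I (Ddx58), MDA5 (Ifih1) and LGP2 (Dhx58), and the first 2 of these signal through MAVS on mitochondria to the kinase TBK1 and the factors IRF3 and IRF7, which induce interferon. TLR3 senses it in endosomes, ZBP1 binds left-handed Z-form nucleic acids, and PKR (Eif2ak2) stops translation by phosphorylating eIF2α. ADAR1 (Adar) edits adenosine to inosine in double-stranded RNA, which lowers its recognition by MDA5. Secreted interferon in turn induces many of these genes through ISGF3, a complex that contains STAT2 and IRF9 and binds repeats of GAAA.

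The stretches around the start sites of 4 members are printed because they hold, or for Mavs lack, the motif GAAANNGAAA that ISGF3-type sites can contain. The sequences are those of RefSeq on GRCm38.p6, the build of the count matrices, which are GRCm38 (mm10). Each line runs 5′ to 3′ on the strand of the gene, from 120 bases before to 30 bases after the start, except for the second line of Ifih1, which runs from base 21 to base 50 of the transcript. Capitals mark the motif, which reads TTTCNNTTTC where it lies on the other strand.
Ifih1, chr2:62646226-62646375, minus strand: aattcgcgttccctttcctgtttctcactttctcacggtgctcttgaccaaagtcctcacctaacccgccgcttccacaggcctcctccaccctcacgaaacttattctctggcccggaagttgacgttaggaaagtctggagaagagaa
Ifih1, chr2:62646206-62646235, minus strand: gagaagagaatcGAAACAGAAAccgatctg
Ddx58, chr4:40239796-40239945, minus strand: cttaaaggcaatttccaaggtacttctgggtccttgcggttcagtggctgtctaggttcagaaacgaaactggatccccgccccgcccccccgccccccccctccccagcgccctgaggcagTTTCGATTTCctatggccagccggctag
Eif2ak2, chr17:78882543-78882692, minus strand: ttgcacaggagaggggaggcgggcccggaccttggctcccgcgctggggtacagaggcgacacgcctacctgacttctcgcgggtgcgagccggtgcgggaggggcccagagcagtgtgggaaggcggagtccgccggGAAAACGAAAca
Mavs, chr2:131233943-131234092, plus strand: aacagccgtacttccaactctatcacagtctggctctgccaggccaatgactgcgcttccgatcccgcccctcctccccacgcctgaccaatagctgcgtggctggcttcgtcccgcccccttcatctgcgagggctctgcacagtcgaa
The table of start sites held 6 of the 8 members, and not Dhx58 and Zbp1. In windows of 300 bases, from 250 before to 50 after the start, the motif was found in Ifih1 at bases 33 to 42, in Ddx58 at bases 3 to 12 on the other strand and in Eif2ak2 at bases 19 to 28. It was not found in the windows of Mavs, Tlr3 or any of the 3 start sites of Adar. The Tlr3 window (45410331 to 45410630) does not reach the 5′ end of the gene in GENCODE, at 45411080, which was not searched. Of all 32851 windows, 3.44% held the motif on either strand. Of 18 interferon-stimulated genes with a window, from the list used below, 9 held it (50%). Its absence from a window therefore does not set a gene apart from that list. The windows of Mavs, Eif2ak2, Ddx58, Ifih1 and Tlr3 contained 19, 17, 15, 14 and 10 CpG pairs, and the 3 of Adar 6, 34 and 12, where the median of all windows was 7.

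In both genotypes Ifih1, Dhx58 and Zbp1 were at least 2-fold higher with 5-Aza than with DMSO, and each of them was higher in H3R26C 5-Aza than in H3WT 5-Aza. Ddx58 and Eif2ak2 followed the same order with smaller folds, and Mavs, Tlr3 and Adar lay within 1.31-fold in each of the 4 comparisons. A gene was counted as higher or lower where its CPM differed at least 2-fold and averaged at least 1 CPM over both libraries. After 5-Aza this held for 3 of 8 members in H3WT, against 5.45% of 12306 genes, and for 3 of 8 in H3R26C, against 9.44% of 12551 genes. In H3WT, Ifih1 was under 1 CPM with DMSO and reached the minimum only through its level with 5-Aza. None of the 8 was at least 2-fold lower, where 0.553% of genes in H3WT and 4.45% in H3R26C were. The median 5-Aza fold of the members was 1.37 in H3WT and 1.74 in H3R26C, and that of all genes 1.03 and 0.977. Without the muscle-like and adipocyte-like clusters described below, the same 3 members were at least 2-fold higher in both genotypes.

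Between the genotypes, 0 of the 7 members with enough counts were at least 2-fold higher in H3R26C with DMSO, against 3.02% of 12052 genes, and 0 were lower, against 1.1%. Ifih1, at 1.91-fold, was not counted because it averaged under 1 CPM. Zbp1 was just under 2-fold, at 2.64 CPM in H3R26C and 1.35 CPM in H3WT, and Dhx58 was at 1.53-fold. The DMSO intervals of these 3 genes did not overlap between genotypes, so the 0 does not mean equal levels. Adar (0.927-fold) and Tlr3 (0.954-fold) lay below 1. With 5-Aza, 3 of 8 members were at least 2-fold higher in H3R26C, against 6.68% of 12669 genes, and 0 were lower, against 4.02%. The 3 were again Ifih1, Dhx58 and Zbp1. The median fold of the members was 1.12 with DMSO and 1.51 with 5-Aza, beside 1.03 and 0.98 for all genes. Thinning the cells to 5000 UMIs each gives every cell the same depth but leaves fewer counts. With it, Ifih1 and Zbp1 were also at least 2-fold higher in H3R26C with DMSO, at 2.57 and 2.39-fold. These folds rest on few cells. Ifih1 was then found in 11 cells of H3WT DMSO and 36 of H3R26C DMSO, and Zbp1 in 20 and 63. With such counts, whether either gene truly passes 2-fold with DMSO cannot be told.

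**Figure D1:**
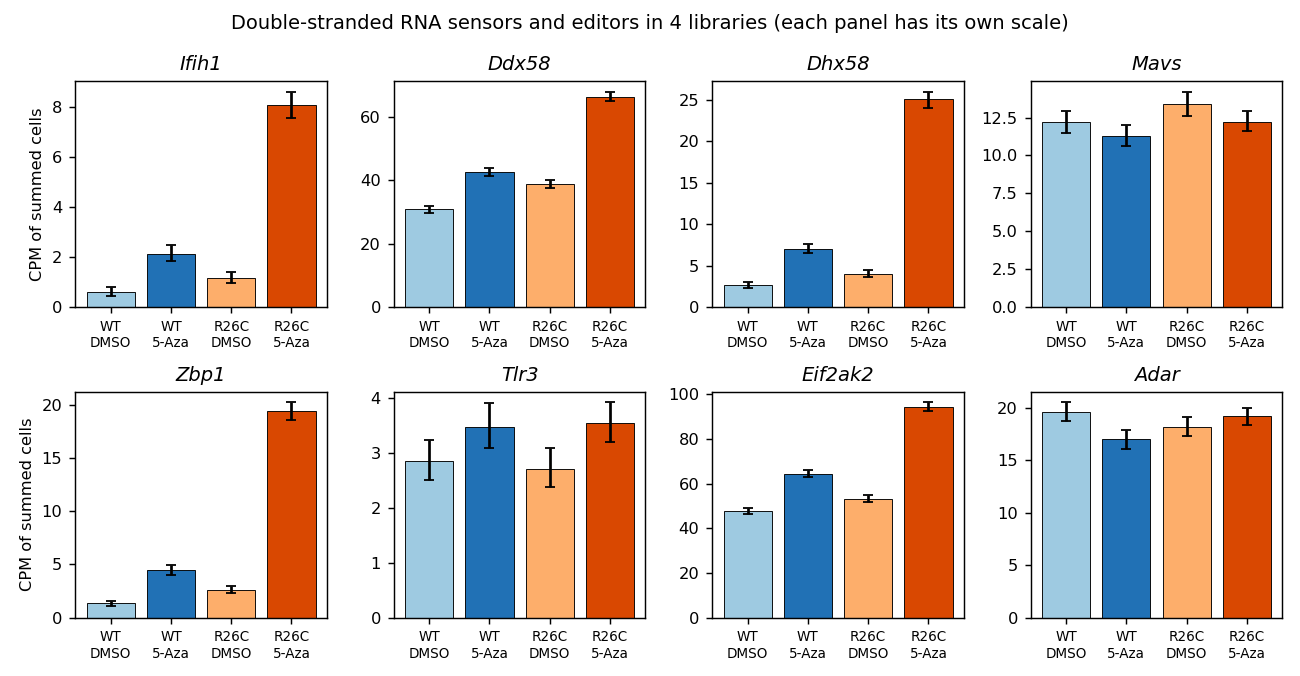
CPM of the 8 members in the 4 libraries, 1 bar for each library, with 95% Poisson intervals of the count. The bars of Ifih1, Dhx58 and Zbp1 are lowest in H3WT DMSO and highest in H3R26C 5-Aza, at 8.07, 25.1 and 19.4 CPM, and those of Mavs stay between 11.3 and 13.4 CPM.

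Ifih1 (ENSMUSG00000026896, chromosome 2, 62595798 to 62646255, minus strand) encodes MDA5, the sensor of long double-stranded RNA. Its level was 0.61 CPM in H3WT DMSO (interval 0.457 to 0.798, 53 UMIs), 1.17 in H3R26C DMSO (0.946 to 1.42, 98 UMIs), 2.13 in H3WT 5-Aza (1.83 to 2.47, 180 UMIs) and 8.07 in H3R26C 5-Aza (7.55 to 8.61, 893 UMIs). No 2 of the 4 intervals overlapped. This gave a 5-Aza fold of 3.5 (2.56 to 4.85) in H3WT and 6.92 (5.61 to 8.61) in H3R26C, and the second was 1.98 times the first (1.37 to 2.87). With 5-Aza, H3R26C stood 3.78-fold above H3WT (3.22 to 4.46).

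Dhx58 (ENSMUSG00000017830, chromosome 11, 100694884 to 100704271, minus strand) encodes LGP2, which lacks the signalling domain of RIG-I and MDA5 and modulates both. It stood at 2.65 CPM in H3WT DMSO (2.32 to 3.01), 4.04 in H3R26C DMSO (3.63 to 4.5), 7.04 in H3WT 5-Aza (6.49 to 7.63) and 25.1 in H3R26C 5-Aza (24.1 to 26). This is the same order of libraries as for Ifih1, with no overlap. The 5-Aza fold was 2.66 (2.28 to 3.11) in H3WT and 6.2 (5.53 to 6.96) in H3R26C, a ratio of 2.33 (1.93 to 2.82). The gene Dhx58os overlaps Dhx58 on the other strand.

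Ddx58 (ENSMUSG00000040296, chromosome 4, 40203773 to 40239828, minus strand) encodes RIG-I, the sensor of short double-stranded RNA with a 5′ triphosphate. Its levels were 30.9 CPM in H3WT DMSO, 38.7 in H3R26C DMSO, 42.6 in H3WT 5-Aza and 66.4 in H3R26C 5-Aza. The order was again the same, over a narrower range. With 5-Aza it was 1.38-fold higher (1.31 to 1.45) in H3WT and 1.72-fold higher (1.65 to 1.79) in H3R26C, so that the fold in H3R26C was 1.24 times that in H3WT (1.16 to 1.33).

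Mavs (ENSMUSG00000037523, chromosome 2, 131234063 to 131248025, plus strand), the adaptor that RIG-I and MDA5 share, was at 12.2 CPM in H3WT DMSO, 11.3 in H3WT 5-Aza, 13.4 in H3R26C DMSO and 12.2 in H3R26C 5-Aza. When the libraries were ordered by level, neighbours overlapped in their intervals. Its 5-Aza folds were 0.927 (0.848 to 1.01) in H3WT and 0.913 (0.843 to 0.989) in H3R26C. The ratio of both folds was 0.985 (0.875 to 1.11).

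Tlr3 (ENSMUSG00000031639, chromosome 8, 45395665 to 45411080, minus strand), the endosomal sensor, was at 2.84 CPM in H3WT DMSO, 3.47 in H3WT 5-Aza, 2.71 in H3R26C DMSO and 3.54 in H3R26C 5-Aza. The 2 DMSO libraries did not differ beyond their counting intervals, nor did the 2 5-Aza libraries. The 5-Aza fold was 1.22 (1.03 to 1.45) in H3WT and 1.31 (1.11 to 1.54) in H3R26C. Their ratio of 1.07 had an interval of 0.845 to 1.35.

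Zbp1 (ENSMUSG00000027514, chromosome 2, 173206612 to 173218923, minus strand), which binds Z-form nucleic acids and can start necroptosis through RIPK3 and MLKL, was at 1.35 CPM in H3WT DMSO (1.11 to 1.61), 2.64 in H3R26C DMSO (2.3 to 3.01), 4.49 in H3WT 5-Aza (4.05 to 4.97) and 19.4 in H3R26C 5-Aza (18.6 to 20.2). None of these intervals overlapped. The 5-Aza fold was 3.34 (2.7 to 4.14) in H3WT and 7.33 (6.38 to 8.46) in H3R26C, a ratio of 2.2 (1.71 to 2.82). With 5-Aza, H3R26C stood 4.31-fold above H3WT (3.86 to 4.82).

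Eif2ak2 (ENSMUSG00000024079, chromosome 17, 78852564 to 78882573, minus strand), the kinase PKR, was at 47.8 CPM in H3WT DMSO, 53.3 in H3R26C DMSO, 64.5 in H3WT 5-Aza and 94.5 in H3R26C 5-Aza. Its intervals did not overlap, and the order was that of Ddx58. The 5-Aza fold was 1.35 (1.3 to 1.41) in H3WT and 1.77 (1.71 to 1.84) in H3R26C, a ratio of 1.31 (1.24 to 1.39). With DMSO, the fold between genotypes of 1.12 became 0.965 with cells thinned to 5000 UMIs, and the cause of this change was not tested.

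Adar (ENSMUSG00000027951, chromosome 3, 89715022 to 89753446, plus strand), the editor, has a constitutive and an interferon-inducible isoform, which counts per gene do not separate. It was at 19.6 CPM in H3WT DMSO (18.7 to 20.5), 17 in H3WT 5-Aza (16.1 to 17.9), 18.2 in H3R26C DMSO (17.3 to 19.1) and 19.2 in H3R26C 5-Aza (18.4 to 20). H3WT 5-Aza was the lowest library and H3WT DMSO the highest, and the intervals of neighbours in this order overlapped. The 5-Aza fold was 0.866 (0.807 to 0.93) in H3WT and 1.06 (0.988 to 1.13) in H3R26C, with a ratio of 1.22 (1.11 to 1.34).

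**Figure D2:**
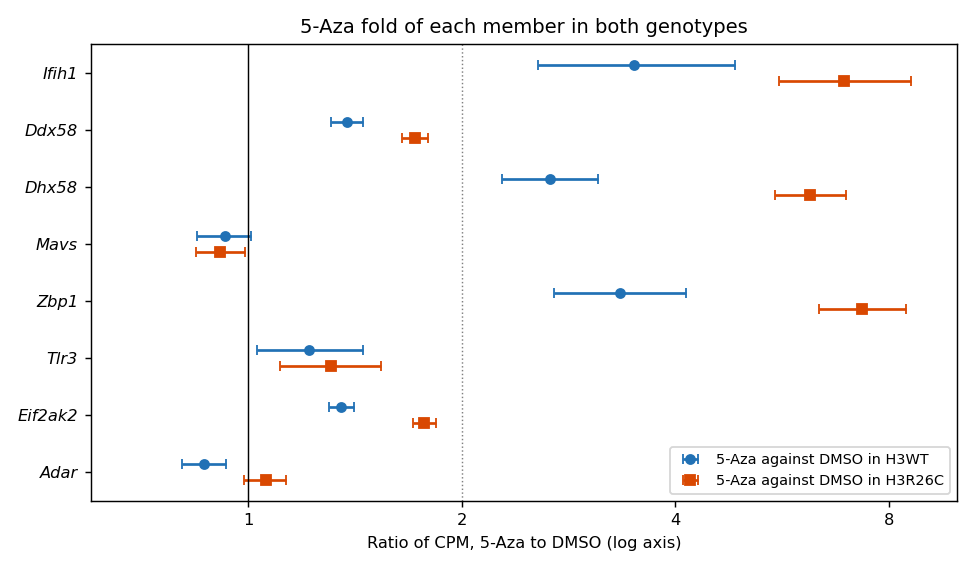
Ratio of CPM with 5-Aza to CPM with DMSO for each member, on a log axis, with 95% counting intervals, circles for H3WT and squares for H3R26C. The dotted line marks 2-fold, and in both genotypes Ifih1, Dhx58 and Zbp1 lie to its right, with folds in H3R26C 1.98 to 2.33 times those in H3WT.

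The share of cells with a UMI moved in the same order as the level for Ifih1, Ddx58, Dhx58 and Zbp1. After thinning to 5000 UMIs per cell, Dhx58 was found in 1.43% of H3WT DMSO cells, 1.9% of H3R26C DMSO, 3.24% of H3WT 5-Aza and 11.5% of H3R26C 5-Aza cells. For Zbp1 these shares were 0.539%, 1.33%, 2.34% and 8.49%, and for Ifih1 0.296%, 0.762%, 1.03% and 3.75%. Mavs was found in 5.88%, 6.26%, 4.87% and 5.89% of the cells of these libraries. Eif2ak2 was found in 22%, 21.3%, 25.8% and 35.7%, Tlr3 in 1.43%, 1.52%, 1.85% and 1.69%, and Adar in 10.3%, 9.05%, 8.28% and 9.69%. At least 1 of Ifih1, Dhx58 and Zbp1, a group put together after their values were seen, was found in 2.24% of H3WT DMSO cells (exact binomial interval 1.79 to 2.77), 3.85% of H3R26C DMSO (3.32 to 4.44), 6.39% of H3WT 5-Aza (5.78 to 7.04) and 21.1% of H3R26C 5-Aza cells (20.2 to 22.1). Without thinning, the shares were 8.76%, 11.3%, 15.2% and 41.9%. UMIs of 3 or more different members were found in 1.05%, 1.48%, 1.87% and 8.35% of thinned cells, and 6 members was the most found in 1 cell, in H3R26C 5-Aza. No cell type that should lack these genes was found in the cultures, so the share that free RNA adds was not measured. The lowest share of the 3-gene group in H3R26C 5-Aza was 5.08% in the muscle-like cluster I (3 of 59 cells) and the next 8% in the muscle-like cluster G (26 of 325 cells).

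To see whether the levels followed the kinds of cells in each library, all kept cells were clustered together with the members and the other listed genes left out of the genes used. This gave 10 clusters, lettered A to J by size, of which G and I were skeletal muscle-like and J adipocyte-like by their markers. The leading genes were Eln and Colec10 in A, Crabp1 and Nefl in B, Igfbp5 in C, Mmp9 in D, Neat1 and Malat1 in E, Cilp and Enpp2 in F and histone genes in H. The libraries were spread unevenly. Cluster A held 3162, 4572, 2252 and 1465 cells of H3WT DMSO, H3WT 5-Aza, H3R26C DMSO and H3R26C 5-Aza, whereas 4157 of the 4368 cells of B and all 531 of F came from H3R26C 5-Aza. Levels are given where a library had at least 50 cells in a cluster, which left 26 combinations.

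Within cluster A the folds were close to those of the whole libraries. Ifih1, Dhx58 and Zbp1 together were at 4.73 CPM in H3WT DMSO, 8.49 in H3R26C DMSO, 14.7 in H3WT 5-Aza and 62.2 in H3R26C 5-Aza. This was a 5-Aza fold of 3.12 (2.75 to 3.54) in H3WT and 7.33 (6.47 to 8.31) in H3R26C. Zbp1 alone was 8.79-fold higher with 5-Aza in the H3R26C cells of A (7.19 to 10.8), and Mavs was at 0.835-fold (0.709 to 0.98). With the listed genes among the genes used for clustering, A kept 505 cells of H3R26C 5-Aza, and the fold of Zbp1 in it was 5.11 (3.86 to 6.75). With DMSO, Ifih1 and Zbp1 were 2.11-fold (1.37 to 3.25) and 2.38-fold (1.8 to 3.15) higher in the H3R26C than in the H3WT cells of A. The cells compared within A fell largely into different clusters when these were finer. At a clustering resolution of 0.4, 72.1% of the H3WT DMSO cells of A and 51.6% of those of H3R26C DMSO fell in a cluster that took 9.56% of those of H3WT 5-Aza and 0.41% of those of H3R26C 5-Aza. Another took 3.51% and 8.75% of the DMSO cells of A and 50.3% and 46.8% of the 5-Aza cells in H3WT and H3R26C. In that one the 5-Aza fold of the 3 genes together was 1.6 in H3WT, with an interval that includes 1 (0.975 to 2.84), and 8.21 in H3R26C (5 to 14.5). In a cluster that held between 23.1% and 51.5% of the A cells of each library it was 2.99 (2.44 to 3.68) and 6.37 (5.34 to 7.64). Whether these finer clusters account for part of the fold in A was not tested. The 3 genes were grouped after their values in these same cells were seen, so a higher sum within clusters is no independent support. In clusters C, D and H, as first lettered, the sum of the 3 genes was also higher with 5-Aza. The folds in H3WT were 2.03 (1.36 to 3.11), 4.89 (2.82 to 8.86) and 2.9 (1.09 to 8.97). The last rests on 6 UMIs in 51 DMSO cells. Single genes did not all follow in H3WT. Zbp1 alone was at 1.42-fold in C (0.796 to 2.63). In H, Ifih1 was at 2.04-fold (0.106 to 121) and Dhx58 at 1.84-fold (0.554 to 6.99). In H3R26C the folds of the sum were 6.95 (5.81 to 8.36), 10.8 (7.73 to 15) and 6.32 (4.22 to 9.69), where D had 53 cells with 5-Aza.

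The level of the members also varied among the clusters of 1 library. In H3R26C 5-Aza, the 3 genes together ranged from 7.81 CPM in cluster I (2.87 to 17, 6 UMIs) and 15.5 in G (12.7 to 18.6) to 118 in F (110 to 126). Cluster F had 59.2 CPM of Dhx58 and 49.5 of Zbp1, where cluster B, with the most cells, had 22.1 and 12.8. Ifih1 was closer between them, with 9.3 CPM in F (7.27 to 11.7) and 7.82 in B (7.14 to 8.56), and the intervals overlapped. All 8 members together were lowest in the muscle-like cluster G, at 104 CPM in H3R26C and 70.9 in H3WT with 5-Aza, and highest in E, at 451 and 260 CPM. In E, Ddx58 reached 162 CPM and Adar 49.5 CPM in H3R26C 5-Aza. The cells of E had a median of 7901 UMIs and 7.48% mitochondrial UMIs, against 15586 and 3.17% in A, and the part of this in their levels was not tested. Without cluster E the same 3 members were at least 2-fold higher in each of the comparisons where they had been so.

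**Figure D3:**
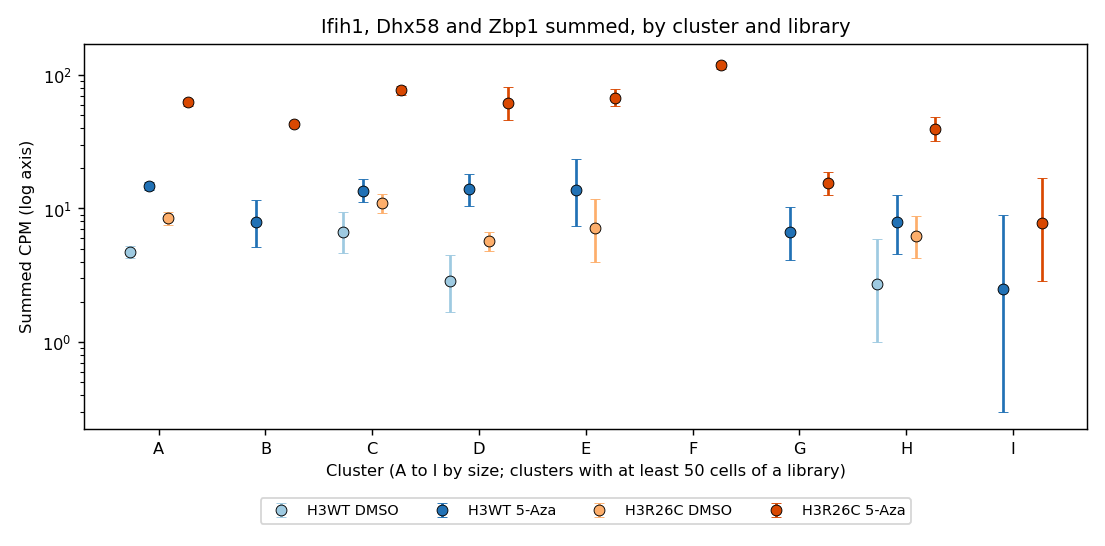
Summed CPM of Ifih1, Dhx58 and Zbp1 in each cluster of each library with at least 50 cells, on a log axis, with 95% Poisson intervals. The H3R26C 5-Aza point is the highest in clusters A to E, G and H, from 15.5 CPM in G to 76.5 CPM in C. Cluster F, at 118 CPM, holds this library only, and B, G and I show the 5-Aza libraries only. In cluster I the intervals of both 5-Aza libraries overlap. The 3 genes were grouped after their values were seen.

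The members were then set beside the interferon-stimulated genes of the same cells. The 22 listed genes of this kind in the files, among them Isg15, Ifit1, Bst2 and Usp18, summed to 697 CPM in H3WT DMSO, 1203 in H3R26C DMSO, 1482 in H3WT 5-Aza and 4221 in H3R26C 5-Aza. Cells with at least 10 of their UMIs among 5000 made up 2.26%, 14.2%, 25.2% and 76% of the same libraries. In H3WT 5-Aza, Zbp1 went from 0 UMIs in cells without an interferon-stimulated UMI through 1.92 CPM (1 to 4 UMIs) and 2.94 CPM (5 to 9 UMIs) to 10.4 CPM (10 or more). In H3R26C 5-Aza the same steps were 0, 1.82, 4.54 and 24.5 CPM. Only 150 cells of H3WT 5-Aza and 72 of H3R26C 5-Aza had no such UMI. The intervals of Zbp1 in these cells reached 1.79 and 2.82 CPM and overlapped those of the next range. Dhx58 went from 3.06 through 7.26 and 12.6 to 29.8 CPM in H3R26C 5-Aza, and Eif2ak2 from 41.3 through 49.5 and 74.9 to 104 CPM. Their first 2 intervals overlapped too, and the 3.06 CPM of Dhx58 rests on 4 UMIs. Mavs showed no such steps, with 15.3, 13.1, 12.2 and 12.1 CPM. Adar in this library had 13.8, 12.5, 16.6 and 20.5 CPM. Tlr3 had 0, 1.53, 2.07 and 4.11 CPM there, and only the last interval lay apart (3.69 to 4.57). In H3WT DMSO, Tlr3 had 1.14, 2.75, 3.35 and 5.38 CPM. It did not rise steadily in H3WT 5-Aza (2.42, 3.79, 3.02 and 3.94 CPM) or in H3R26C DMSO (1.42, 2.78, 2.7 and 2.71 CPM).

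In H3WT DMSO, Zbp1 was at 0.327, 0.883, 2.25 and 8.32 CPM and Ddx58 at 19.9, 29.3, 35.9 and 56.3 CPM over the 4 ranges, although only 84 cells were in the highest. Eif2ak2 in this library was level over the lower ranges and higher in the top one, at 45.1, 45, 51.9 and 92 CPM. Ifih1 had 0.654, 0.433, 0.86 and 2.94 CPM, of which the first rests on 4 UMIs and the last on 6. In H3R26C DMSO, Ifih1 had 2.84, 1.06, 0.971 and 1.84 CPM over the 4 ranges. The first rests on 4 UMIs (0.774 to 7.28). The last, from 23 UMIs (1.16 to 2.75), lay above the middle ranges with overlapping intervals, so a rise is neither shown nor excluded. In cells with 5 to 9 interferon-stimulated UMIs, whose median was 7 in both 5-Aza libraries, Dhx58 was at 12.6 CPM in H3R26C (10.9 to 14.6) and 5.99 in H3WT (5.21 to 6.85), Ifih1 at 2.94 (2.13 to 3.94) and 1.61 (1.22 to 2.09), and Zbp1 at 4.54 (3.53 to 5.76) and 2.94 (2.4 to 3.56). The intervals of Zbp1 overlapped, those of Ifih1 nearly met and those of Dhx58 were well apart. In cells with 1 to 4 such UMIs, with a median of 3 in both 5-Aza libraries, only the intervals of Dhx58 were apart. Dhx58 was at 7.26 CPM in H3R26C (5.72 to 9.09) and 3.91 in H3WT (3.18 to 4.77). Zbp1 was at 1.82 (1.09 to 2.84) and 1.92 (1.41 to 2.54), and Ifih1 at 2.01 (1.24 to 3.07) and 1.4 (0.974 to 1.94). In the open range of 10 or more the medians were 22 and 13, so the 2 libraries are not matched there. In the lower ranges only small observed counts are matched. Over all kept cells the medians were 18 in H3R26C 5-Aza and 6 in H3WT 5-Aza, so the true levels may differ there too.

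**Figure D4:**
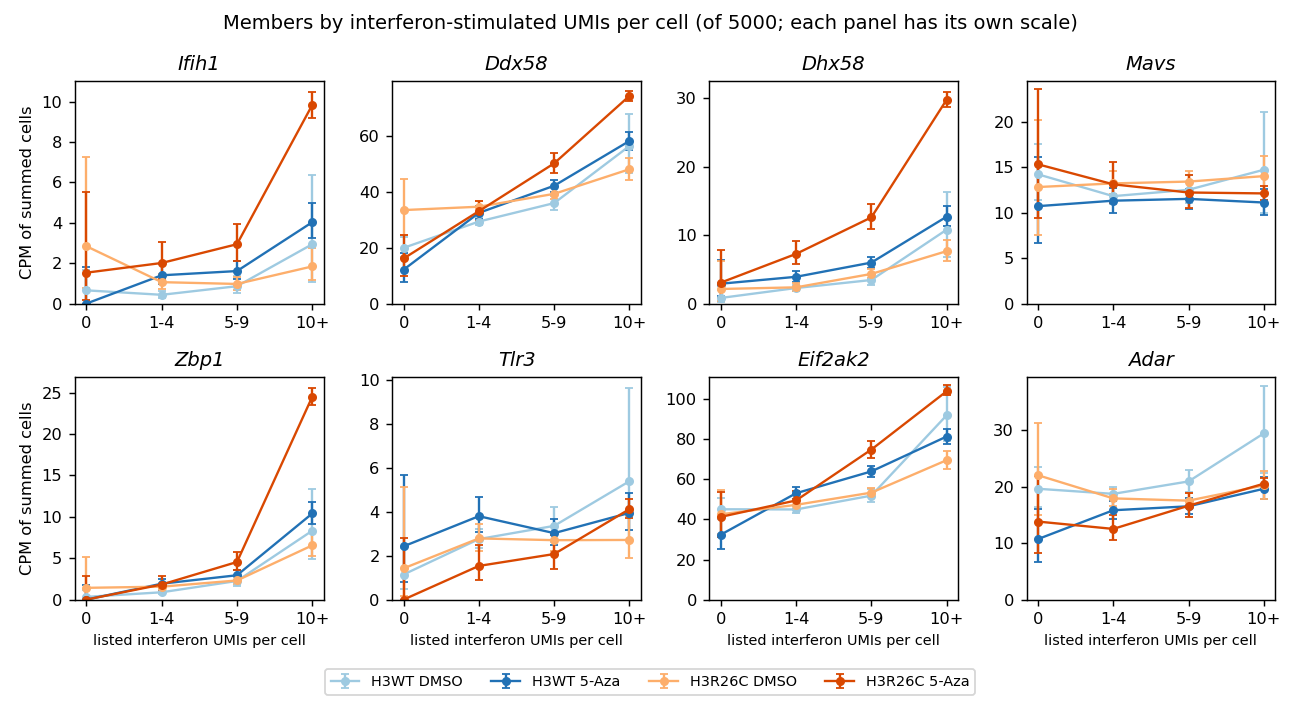
CPM of each member in cells grouped by their UMIs of the 22 interferon-stimulated genes among 5000 thinned UMIs, 1 line for each library, with 95% Poisson intervals. The lines of Ifih1, Ddx58, Dhx58, Zbp1 and Eif2ak2 are highest at 10 or more UMIs in H3R26C 5-Aza, and those of Mavs are level, with 11.1 to 14.7 CPM there.

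The genes whose pattern was most like that of the summed members were sought over the 26 combinations of cluster and library, among genes that averaged 10 CPM or more. Among those reported here, the highest were Ifi203 (Pearson correlation 0.938 of log2 CPM + 1), Steap2 (0.903), Stat2 (0.89) and Irf9 (0.882). Combinations of 1 library share that library, so these values are a description. Among the members themselves, the correlation with the sum of the other 7 was 0.925 for Ddx58, 0.872 for Eif2ak2 and 0.82 for Ifih1, and lowest for Mavs, at 0.287.

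The other genes of the pathway were grouped by role. Of all measured genes, 5.45% in H3WT and 9.44% in H3R26C were at least 2-fold higher with 5-Aza. Of the interferons, Ifnb1 had no UMI in any library, where a floor of 3 counts is at most 0.0357 CPM and the upper end of the 95% Poisson interval at most 0.0439 CPM, and the 20 genes of type I and type III ligands together had between 3 and 5 UMIs in a library, all but those of Ifna9 in H3WT DMSO from Ifne. Ifng had 0 UMIs in both DMSO libraries, 5 in H3WT 5-Aza and 10 in H3R26C 5-Aza. Of 9 receptor and ISGF3 genes reported here, 0 in H3WT and 1 in H3R26C were at least 2-fold higher with 5-Aza. It was Irf9, at 18.4 CPM with DMSO and 42.8 CPM with 5-Aza in H3R26C (2.32-fold, 2.19 to 2.46) and 1.59-fold in H3WT (1.49 to 1.7). Ifngr1 was at 1.47-fold in H3WT. The smallest folds were those of the kinase Tyk2 in both genotypes (0.824 and 0.715), Ifnar1 in H3WT (0.94) and Jak1 in H3R26C (0.73). The median fold of these genes was 1.35 in H3WT and 0.952 in H3R26C.

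The OAS enzymes make an oligoadenylate second messenger once they bind double-stranded RNA. With 5-Aza, 1 of 2 measured OAS genes was at least 2-fold higher in H3WT and 4 of 5 in H3R26C. The shares of all genes were 5.45% and 9.44%. Measured genes averaged at least 1 CPM over both libraries. A gene near 0 with DMSO passes this minimum only where 5-Aza raises it, so these counts do not compare the genotypes. Such a gene is also counted as higher by the minimum alone. This holds for Oas2 and Oasl1 in H3R26C, so the 4 of 5 is no evidence of a rise of the family. Oas2 was at 0.19 CPM with DMSO and 8.62 CPM with 5-Aza in H3R26C (45.3-fold, 27.7 to 79.5), and Oasl1 at 0.0476 CPM, from 4 UMIs, and 2.76 CPM (58.1-fold, 22.5 to 215). Oasl2 was 3.86-fold higher in H3WT, whereas Oas1c was at 1.14 and 1.47-fold.

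Of 11 sensor cofactors and RNA-binding partners reported here, 1 in each genotype was at least 2-fold higher with 5-Aza (all genes, 5.45% and 9.44%). It was Ddx60, a helicase that promotes RIG-I signalling, at 4.77-fold in H3WT (3.29 to 7.08) and 11.1-fold in H3R26C (8.64 to 14.4). Zc3hav1, which encodes the antiviral protein ZAP, was at 1.39 and 1.47-fold, and Dicer1, which cuts double-stranded RNA into short fragments, at 0.907 and 0.777-fold. The median fold of these genes was 1.05 in H3WT and 1.04 in H3R26C.

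Of 19 measured signalling genes below MAVS, TLR3 and ZBP1, 3 in H3WT and 2 in H3R26C were at least 2-fold higher. The shares of all genes were 5.45% in H3WT and 9.44% in H3R26C. Irf7, the inducible interferon regulatory factor, was at 2.78-fold in H3WT (2.37 to 3.26) and 10.5-fold in H3R26C (9.51 to 11.7). Irf3 was at 0.958 and 0.911-fold and Tbk1 at 1.15 and 0.979-fold. Mlkl, the effector of necroptosis, was 3.67-fold higher in H3WT (3.15 to 4.3) and 3.34-fold higher in H3R26C (3 to 3.72). Its kinase Ripk3 was at 0.863 CPM in H3WT DMSO, 2.44 in H3WT 5-Aza, 5.56 in H3R26C DMSO and 8.26 in H3R26C 5-Aza, so its 5-Aza fold was 2.83 (2.16 to 3.74) in H3WT and 1.49 in H3R26C. The smallest folds were Ikbke (0.715) and Ticam1 (0.81), which encodes the TLR3 adaptor TRIF, in H3WT, and Nlrx1 (0.7) and Traf6 (0.733) in H3R26C.

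Of 10 genes around PKR and the stress response below it, 0 in H3WT and 2 in H3R26C passed 2-fold. Of all genes in H3R26C, 9.44% were higher and 4.45% lower. Trib3 was higher (1.94 and 2.8-fold) and Ppp1r15a, which encodes the phosphatase subunit GADD34, was lower, at 0.594-fold in H3WT (0.577 to 0.611) and 0.379-fold in H3R26C (0.366 to 0.393). Eif2s1, the substrate of PKR, was at 1.24 and 1.39-fold, Ddit3 at 0.774-fold in H3WT and Eif2ak4 at 0.6-fold in H3R26C. The list's median fold was 0.876 and 0.852. These counts are of RNA, and the activity of PKR was not measured.

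Of the sensors of DNA and single-stranded RNA, Aim2 was at 0.299 and 7.65 CPM in H3WT DMSO and 5-Aza (25.6-fold, 17.3 to 39.4) and at 0.619 and 15.2 CPM in H3R26C (24.6-fold, 18.7 to 33.1), a ratio of folds of 0.963 (0.597 to 1.56). Tmem173, which encodes STING, averaged under 1 CPM in H3WT (1.81-fold) and was 4.24-fold higher in H3R26C (3.3 to 5.52). Cgas was at 1.26 and 0.992-fold and Ifi204 at 1.31 and 1.2-fold. Of 9 RNA decay and nuclease genes, 0 in H3WT and 1 in H3R26C were at least 2-fold higher (all genes, 5.45% and 9.44%). It was Pnpt1, the mitochondrial RNA-degrading enzyme, at 1.44 and 2.28-fold (2.11 to 2.47). Ttc37 was at 1.17-fold in H3WT and Rnaseh2a at 1.16-fold in H3R26C, and the smallest folds were Skiv2l (0.757 and 0.723), Exosc10 in H3WT (0.966) and Xrn1 in H3R26C (0.799).

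Of the interferon-stimulated genes themselves, 10 of 19 measured in H3WT and 16 of 20 in H3R26C were at least 2-fold higher with 5-Aza, with medians of 2.02 and 3.79. The shares of all genes were 5.45% and 9.44%. Isg15 was at 5 and 15.8-fold, Usp18 at 4.25-fold in H3WT and Ifi44 at 22.2-fold in H3R26C. The smallest folds were Ifit2 in H3WT (1), Parp14 in both (1.13 and 1.23) and Ifi35 in H3R26C (1.5). Between genotypes with DMSO, 5 of 19 of these genes were at least 2-fold higher in H3R26C, and with 5-Aza 15 of 20 were. Of all genes, 3.02% with DMSO and 6.68% with 5-Aza were.

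**Figure D5:**
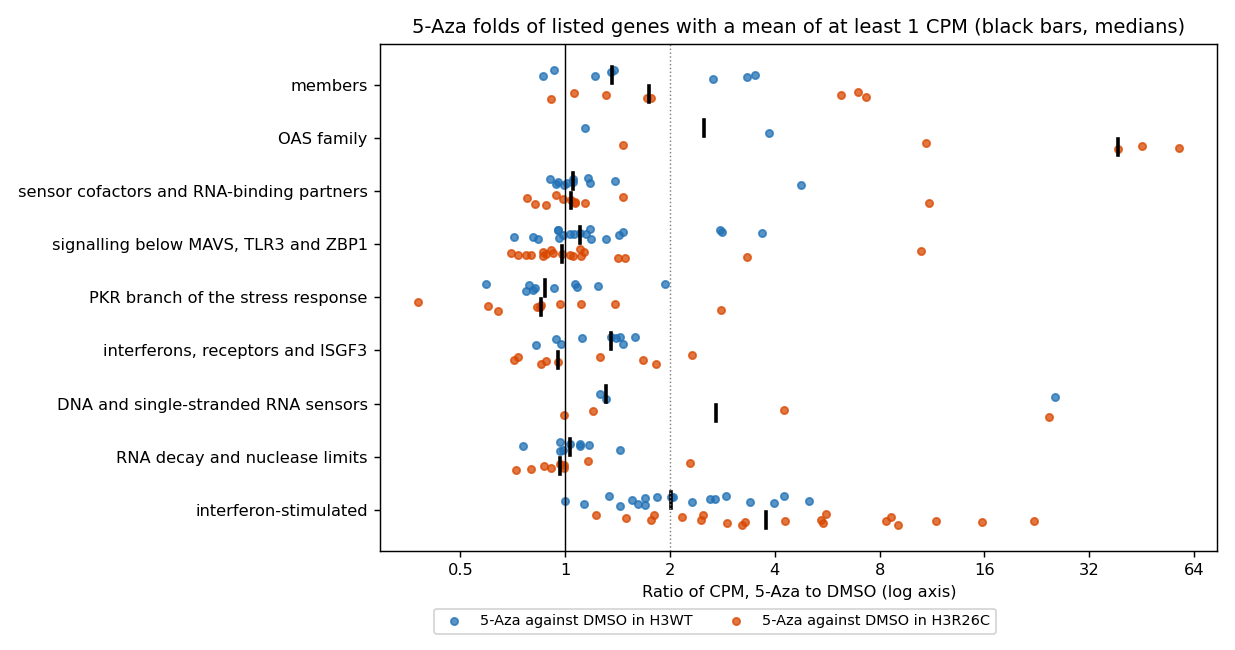
Ratio of CPM with 5-Aza to CPM with DMSO, on a log axis, for each listed gene that averaged 1 CPM or more, 1 row per list, with black bars at the medians. The OAS genes of H3R26C reach 58.1-fold, the interferon-stimulated genes lie at or to the right of 1 in both genotypes, and the medians of the cofactors, the signalling genes and the PKR genes lie between 0.852 and 1.1.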

How the data were processed

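Single-cell RNA sequencing counts of 4 libraries (C3H10T1/2, H3WT or H3R26C, DMSO or 5-Aza) were analysed, with 1 library per condition. The deposited values are whole UMI counts per gene and barcode, which the authors obtained from the reads on GRCm38 (mm10), and the file headers name Cell Ranger 6.1.0. They were neither normalized nor passed through the study's cell filter. That filter (5000 UMIs, 1500 genes, 20% mt- UMIs) was applied here, and no doublets were removed. Counts of kept cells were summed per library and scaled to CPM. A fold is a ratio of CPM without a pseudocount, with a 95% exact conditional binomial interval, and a ratio of folds has a log-normal counting interval. A single gene count of 0 was set to 3 counts in a fold.

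Clusters were made in Seurat 5.3.0 (sctransform 0.4.2, R 4.3.3) with cell cycle scores regressed, 20 principal components and a resolution of 0.2, without 47 of the 3000 variable genes that were listed here. A cluster was named where at least 3 markers were in 25% of its cells and 2 log2 units above the rest. Other steps used Python 3.11.15, numpy 2.4.6, pandas 2.3.3, scipy 1.17.1 and matplotlib 3.10.9. Coordinates are those of GENCODE M21.

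The members and lists were chosen with earlier results of these data known. The genes named are the members, the 2 largest and 2 smallest 5-Aza folds of each list, Ifnb1, Irf7, Irf3, Tbk1 and Tmem173, and the 5 genes most like the members, except that some genes are not reported here and are left out of the counts and medians of their lists. Ripk3 in H3R26C, Ifng, Ifna9 and Ifne were named after their values were seen. Alternatives changed the scaling, the cell filter, the thinning, the pseudocount, the thresholds, the clusters and the cell cycle phase. The calculation of folds was tested on simulated data. The listed genes without a row in the matrices used were not analysed here.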

Additional observations from a re-analysis of the deposited data

Results flagged for a closer look

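Adar was lower with 5-Aza in H3WT (0.866-fold) and slightly higher in H3R26C (1.06-fold), and in the same way it was lower in H3R26C than in H3WT with DMSO (0.927-fold) and higher with 5-Aza (1.13-fold). The ratio of the 5-Aza folds was 1.22, with a counting interval of 1.11 to 1.34. Tlr3 also pointed to opposite sides between genotypes, at 0.954-fold with DMSO and 1.02-fold with 5-Aza, but both intervals included 1 and the ratio of 1.07 had an interval of 0.845 to 1.35. With 1 library per condition these differences were not tested.

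The barcodes that the cell filter left out entered only the alternative settings with a looser filter or with every barcode. In H3R26C 5-Aza they carried 6 members above the level in the left-out barcodes of H3R26C DMSO, with intervals that did not overlap. In those 4491 barcodes Ifih1 was at 7.4 CPM, Ddx58 at 71.4 CPM, Dhx58 at 17.2 CPM, Zbp1 at 14.7 CPM, Eif2ak2 at 92.5 CPM and Adar at 25.5 CPM. In the 1813 left-out barcodes of H3R26C DMSO they were at 0.495, 34.2, 3.47, 3.96, 54 and 12.4 CPM. In H3WT no member's left-out barcodes stood above those of DMSO in this sense. Ifih1 was at 0.328 CPM with DMSO (0.00831 to 1.83) and 1.2 with 5-Aza (0.601 to 2.15). Dhx58 was at 2.3 (0.923 to 4.73) and 4.81 (3.5 to 6.46). Zbp1 pointed the other way, at 4.59 (2.51 to 7.71) and 3.06 (2.03 to 4.43).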

How the results depend on the processing

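No paired analysis was possible because the labels give no replicate numbers and there is a single library for each condition. There were 10 to 13 other settings and 1 added after seeing the data, which left out cluster E. In all of them the 3 members called with 5-Aza stayed above 1. Of 352 recomputed folds of single members, 32 lay outside their counting interval. A reversal could be counted only for folds that had been called, and none of those reversed. Folds not called did cross 1 between genotypes with cells thinned to 5000 UMIs. With DMSO, Eif2ak2 went from 1.12 to 0.965 and Tlr3 from 0.954 to 1.08. With 5-Aza, Tlr3 went from 1.02 to 0.896. The counts of members at least 2-fold higher changed as follows. After 5-Aza, the 3 in H3WT became 0 with a minimum of 5 CPM, since Ifih1, Dhx58 and Zbp1 all averaged less there, and 2 with 1 CPM added to both libraries, where the fold of Ifih1 was 1.95 in place of 3.5. The 3 in H3R26C became 5 with a fold of 1.5, with Ddx58 and Eif2ak2, and 2 with a minimum of 5 CPM. Between genotypes with 5-Aza, the 3 became 4 with a fold of 1.5. With DMSO, the 0 became 2 with a fold of 1.5, 2 with cells thinned to 5000 UMIs and 1 in G1 cells only, where the cause was not tested. Of 72 shares of cells with a UMI, 70 changed with the thinning depth. With the listed genes among the variable genes, the highest cluster of H3WT 5-Aza for Ifih1, Dhx58 and Zbp1 together was at 23.7 CPM, and with a resolution of 0.4 at 19 CPM, in place of 14.7 CPM. Another scaling moved the median of all genes by at most 0.067 on the log2 scale. Depth limits Ifih1 most, with 53 UMIs in H3WT DMSO.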
